A study of Mus musculus with 13 samples.

Results

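Transcripts of respiratory complex I and its assembly factors were measured in whole quadriceps muscle of C57BL/6 mice, a common inbred strain. The genes were chosen by name: all Nduf names without a pseudogene suffix that reached 1 TPM in at least 3 of the 13 libraries. TPM expresses the abundance of a transcript relative to the rest of its library, corrected for transcript length. This rule gave 45 genes of 24015 in the table and of 11876 that passed the same filter, and no Nduf name failed it. The subunits encoded by mitochondrial DNA are not analysed here.

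The libraries fell into 4 groups. The first group was 3 libraries of aged mice given SW033291 in batch 2 (replicates 1, 4 and 6). SW033291 is a small-molecule inhibitor of 15-PGDH, the enzyme that degrades prostaglandin E2, and was injected into the peritoneum once a day at 5 mg/kg for 4 weeks. The second was 3 libraries of aged mice given vehicle in batch 2 (replicates 2, 3 and 8), the third was 3 libraries of aged mice given vehicle in batch 1 (replicates 2, 3 and 4), and the last was 4 libraries of young vehicle mice in batch 1 (replicates 1, 3, 4 and 5). Vehicle was a mix of ethanol, Cremophor EL and dextrose solution. Young mice were 3 months old and aged mice were labelled as older than 24 months, and no group carried a transgene or a deleted gene. The labels do not say whether libraries of a group are from different animals. The p-values therefore measure only the spread between these samples, which may be technical.

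Complex I takes electrons from NADH, passes them to ubiquinone and pumps protons across the inner mitochondrial membrane. It is shaped like an L: the matrix arm holds the flavin and iron-sulfur clusters, and the membrane arm holds the proton channels. Core subunits carry out the reaction, accessory subunits surround and stabilise them, and assembly factors join the modules and leave the finished enzyme. In muscle the enzyme feeds the respiratory chain that makes ATP for sustained work. The 45 genes were sorted into 7 core subunits encoded in the nucleus, 9 accessory subunits of the matrix arm, 19 accessory subunits of the membrane arm, the acyl carrier protein Ndufab1, which sits in both arms, and 7 assembly factors. Ndufa4 and Ndufa4l2 bear the name only, since the Ndufa4 protein is now assigned to cytochrome c oxidase (complex IV) and Ndufa4l2 is its homolog. Both are counted among the 45, which are called complex I genes below for short.

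Many nuclear genes of the respiratory chain are known targets of the transcription factors NRF1, YY1, ERR and the ETS factor GABP. Promoter windows from 250 bases before to 50 bases after the start were found in RefSeq (GRCm38.p6) for 39 of the 45 genes, 41 windows in all. The YY1 core AAGATGGCG, searched on both strands, was in 5 of the 41 windows (12.2%), against 2.99% of 11416 windows of the other genes tested. All 5 matches lay on the gene's own strand and began 23 to 36 bases into the transcript, counting the first transcribed base as 1. They are shown because this position recurs between genes, of which only Ndufc1 is a membrane arm subunit. Capitals mark the motif, and each sequence runs in the direction of transcription.
Ndufa9 (chr6:126849097-126849125, minus strand): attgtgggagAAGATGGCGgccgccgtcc
Ndufc1 (chr3:51408915-51408943, minus strand): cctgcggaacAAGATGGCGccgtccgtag
Ndufs4 (chr13:114388045-114388069, minus strand): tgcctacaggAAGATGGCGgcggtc
Ndufs6 (chr13:73328433-73328459, minus strand): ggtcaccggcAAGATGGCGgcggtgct
Ndufs7 (chr10:80249463-80249491, plus strand): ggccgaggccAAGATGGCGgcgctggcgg

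The NRF1 core GCGCATGC was also in 5 windows (12.2%, against 5.13% of the other windows). Its reverse complement GCATGCGC overlaps it where the site is a full palindrome. The matches of 3 subunits and 1 assembly factor are shown as examples of the shared core, with the motif in capitals. The fifth gene, Ndufaf4, held 2 separate matches.
Ndufa11 (chr17:56717692-56717719, plus strand): cctgcactgcGCGCATGCgcgcacgcct
Ndufa6 (chr15:82354357-82354384, minus strand): ccgcggtagaGCATGCGCattgcagagc
Ndufa8 (chr2:36049329-36049356, minus strand): cgctggagacGCATGCGCagatggtacc
Ndufaf5 (chr2:140170652-140170679, plus strand): agtcccgttgGCGCATGCgcctaataga

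The ERR motif AAGGTCA was in 3 windows (7.32%, against 3.2%), those of Ndufb2, Ndufb4 and Ndufs5. The ETS core CCGGAAG was in 5 windows (12.2%, against 17.1%). These matches describe letters in the windows and were not tested as binding sites.
Ndufb2 (chr6:39592374-39592400, plus strand): gagcagcagtAAGGTCAgccaagagca
Ndufb4 (chr16:37654407-37654433, minus strand): cctgagcctgAAGGTCAgactcgagag
Ndufs5 (chr4:123718398-123718424, minus strand): ttctcgagtgTGACCTTgctcaagtag

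Across libraries, 10710 to 11687 genes stood at 1 TPM or more, and the lowest correlation between libraries of a group was 0.946. TPM keep no record of reads. Depth is therefore unknown and counting intervals cannot be given. The 6 markers of striated muscle summed to 110000 to 158120 TPM per library, so the labelled tissue's defining transcripts were present in each. Neutrophil markers stood apart in 3 libraries: 233 TPM in SW033291 replicate 4, 776 TPM in aged vehicle batch 2 replicate 2 and 1760 TPM in aged vehicle batch 1 replicate 4, against 0.87 to 22.4 TPM in the other libraries. In whole muscle, fewer cells of a type and less RNA per cell cannot be told apart.

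The 45 genes spanned a wide range of levels per transcript length, and by mean over all libraries the assembly factors lay below the subunits. Ndufa4 was highest, at a mean of 2244 TPM over all libraries. Among true subunits Ndufb9, in the outer part of the membrane arm, led with 1133 TPM, followed by Ndufc1 with 957 TPM and Ndufb8 with 951 TPM. Other subunits except Ndufa11 lay between these and Ndufs4 at 181 TPM. Ndufa11, which sits at the junction of the membrane arm, stood at 63.7 TPM. Its level is uncertain: the authors' deposited table lists it at a mean level of 313, which per TPM and kilobase of principal transcript is 10.3, where the 5th and 95th percentiles of all genes were 0.83 and 2.76. Of the 45 genes, 7 lay below this range (Ndufa12, Ndufab1, Ndufb2, Ndufb4, Ndufc1, Ndufs5 and Ndufv3) and 3 above it (Ndufa11, Ndufaf5 and Ndufaf7). The 7 assembly factors ranged from 51.0 TPM for Ndufaf1 to 14.5 TPM for Ndufaf7, below every subunit by this mean. In aged vehicle libraries of batch 2 alone, Ndufaf1 averaged 54.1 TPM and Ndufa11 52.2 TPM. Ndufa4l2, known for its induction in low oxygen, was lowest at 10.3 TPM.

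**Figure D1:**
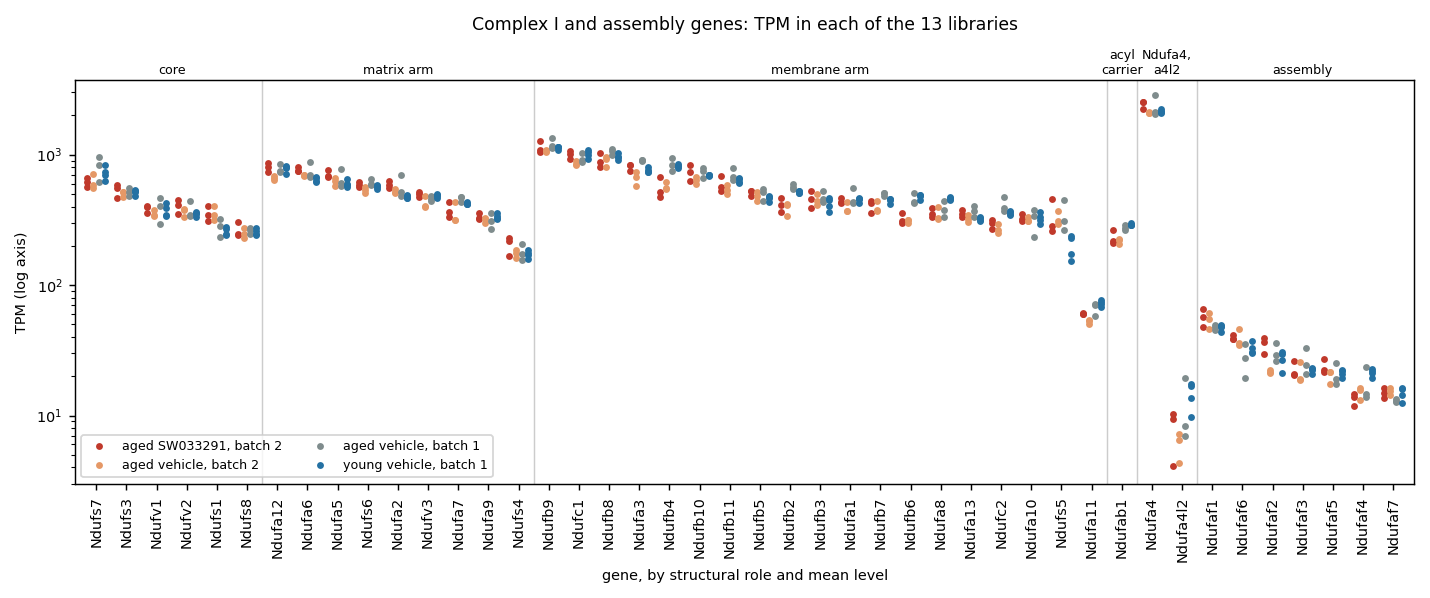
TPM of 44 of the 45 genes (log axis) in each of the 13 libraries, 1 point per library, coloured by group and ordered by structural role and mean level. Subunits other than Ndufa11 average 181 TPM or more, and assembly factors average 14.5 to 51.0 TPM.

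Libraries of a group differed little for most of these genes. The median coefficient of variation over the 45 genes was 9.43% in SW033291 libraries, 7.35% in aged vehicle libraries of batch 2, 11.8% in aged vehicle libraries of batch 1 and 4.87% in young libraries. Ndufa4l2 varied most in each of the 4 groups, with 24.4% to 59.0%. Its TPM were 9.5, 4.1 and 10.2 in SW033291 libraries and 6.5, 4.3 and 7.3 in aged vehicle libraries of batch 2. In batch 1 they were 8.2, 19.3 and 6.9 in aged and 17.5, 16.8, 9.8 and 13.5 in young vehicle libraries. The ranges overlapped between SW033291 and vehicle and between aged and young.

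Together the 36 subunits, without Ndufa4 and Ndufa4l2, took 1.86% of all TPM in SW033291 muscle, 1.72% in aged vehicle muscle of batch 2, 1.98% in aged vehicle muscle of batch 1 and 1.86% in young muscle. Their sum was 18553 ± 1278 TPM with SW033291 and 17180 ± 361 TPM with vehicle in batch 2 (SD, n = 3 each). The ranges of this sum, 17486 to 19969 TPM and 16942 to 17595 TPM, overlapped. In batch 1 it was 19823 ± 812 TPM in aged (n = 3) and 18637 ± 291 TPM in young muscle (n = 4). The matrix arm accessory subunits summed to 4770 to 5002 TPM with SW033291 and 4195 to 4446 TPM with vehicle in batch 2. These ranges did not overlap. Nor did the sums of 9 complex III genes overlap, at 7923 to 9306 TPM with SW033291 and 7490 to 7907 TPM with vehicle. The 13 genes of complex IV also did not, at 14571 to 16356 TPM with SW033291 and 13634 to 14241 TPM with vehicle. Sums of complex II and of ATP synthase overlapped. The membrane arm accessory subunits summed to 9280 to 11091 TPM with SW033291 and 9086 to 9396 TPM with vehicle, and the ranges overlapped. Core subunits summed to 3453 ± 208 TPM with SW033291 and 3384 ± 149 TPM with vehicle, a difference within the spread. Assembly factors summed to 206 ± 12.6 TPM with SW033291 and 187 ± 14.1 TPM with vehicle.

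**Figure D2:**
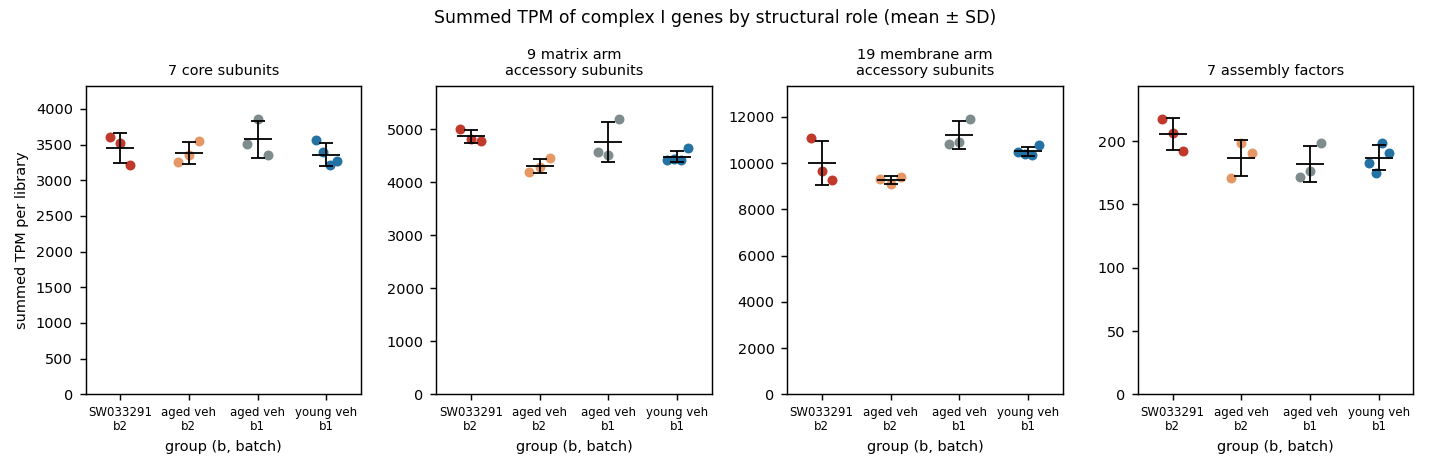
Summed TPM per library of the core subunits, matrix arm accessory subunits, membrane arm accessory subunits and assembly factors, by group (points are libraries, bars mean ± SD, axes start at 0). The matrix arm sums of SW033291 libraries, 4770 to 5002 TPM, lie above those of aged vehicle libraries of batch 2, 4195 to 4446 TPM.

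The comparison of SW033291 with vehicle in aged muscle of batch 2 asks which transcripts move with inhibition of 15-PGDH. No complex I gene passed the test. Most stood slightly higher with SW033291 while most other transcripts stood slightly lower. A positive log2 difference was seen for 38 of the 45 genes, against 28.9% of all genes tested. Their median log2 difference was 0.10, or 7.07% higher, where the median of all genes was -0.13. By limma on the log2(TPM + 1) scale, with p-values adjusted over all 11876 genes (Benjamini-Hochberg), 0 of the 45 and 0 of all genes (0.0%) had an adjusted p under 0.05. At an unadjusted p under 0.05, 5 of the 45 were higher (1.46% of all genes were) and 0 were lower (8.82% of all genes were). Groups that did not overlap, with SW033291 higher, were found for 11 of the 45, against 1.95% of all genes. None of the 45 did so in the other direction, against 15.1% of all genes.

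Ndufaf2, an assembly factor that occupies the place of the subunit Ndufa12 until the matrix arm is complete, had the largest difference. It stood at 39.2, 29.7 and 36.5 TPM in SW033291 libraries and 21.5, 22.4 and 21.2 TPM in aged vehicle libraries of batch 2. Every SW033291 library was above every vehicle library. The log2 difference was 0.66 (SE 0.16, limma adjusted p = 0.39). It ranged from 0.58 to 0.81 over 16 alternative fits and passed in none, with adjusted p of 0.23 to 0.51. Ndufa12 itself, the subunit of the matrix arm that resembles Ndufaf2, stood at 857, 742 and 804 TPM with SW033291 and 661, 683 and 643 TPM with vehicle. These groups also did not overlap, and the log2 difference was 0.27 (SE 0.09, limma adjusted p = 0.42). Its level is uncertain, since 26.2% of the 50-base windows of its principal transcript are shared, with Gm15920. Shares of over 10% were also found for Ndufb4, Ndufs5, Ndufs3 (35.8%), Ndufb9 (23.4%), Ndufs6 (14.6%), Ndufb8 (13.5%) and Ndufab1 (12.3%), whose levels are uncertain likewise.

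Ndufa3, a small subunit of the membrane arm next to its junction, stood at 834, 750.2 and 832 TPM with SW033291 and 729.5, 572 and 677 TPM with vehicle. The lowest SW033291 library was above the highest vehicle library, and the log2 difference was 0.29 (SE 0.10, limma adjusted p = 0.41). Ndufa4 followed the same order, with 2522, 2547 and 2227 TPM with SW033291 and 2132, 2079 and 2089 TPM with vehicle, a log2 difference of 0.21 (SE 0.11, limma adjusted p = 0.53). Its homolog Ndufa4l2 had a log2 difference of 0.29 with an SE of 0.36.

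By role, 9 of 9 matrix arm accessory subunits had a positive log2 difference with SW033291, against 28.9% of all genes. Groups did not overlap for 5 of the 9, with SW033291 higher, against 1.95% of all genes. After Ndufa12, the largest of the 9 was Ndufs4, whose loss in mice causes a Leigh-like brain disease, with 0.22 (SE 0.13). Ndufv3, a subunit of the NADH-oxidising tip, followed with 0.21 (SE 0.09). Of the membrane arm accessory subunits, 3 of 19 had groups that did not overlap. A positive difference was seen for 17 of the 19, with Ndufc1 at 0.22 (SE 0.10) and Ndufa11 at 0.20 (SE 0.10) after Ndufa3. The exceptions were Ndufb4 with -0.06 and Ndufs5 with -0.00.

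The core subunits were divided. Of the 3 that form the NADH-oxidising tip, Ndufv1, which binds the flavin, had a log2 difference of 0.13, and Ndufv2, its iron-sulfur partner, 0.14. Ndufs1, which carries several iron-sulfur clusters, had -0.02. Of those that lead electrons to ubiquinone, Ndufs3 had 0.08, Ndufs8 0.08 and Ndufs7 -0.01. The groups overlapped for each of these genes. Among assembly factors, Ndufaf5, a hydroxylase of Ndufs7, had 0.22 (SE 0.15), Ndufaf3 0.09, Ndufaf1 0.06, Ndufaf6 0.02, Ndufaf7, a protein arginine methyltransferase, -0.04, and Ndufaf4, a partner of Ndufaf3, -0.15 (SE 0.18).

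The authors' deposited table of SW033291 against vehicle gave the same direction for more of these genes. In the authors' deposited table, 44 of 44 genes with a value had a positive log2 fold change, where 49.5% of its genes that passed the same TPM filter did. Their median there was 0.25, against -0.003 for all those genes. In the authors' deposited table, 16 of the 44 were higher at an unadjusted p under 0.05, against 1.6% of genes. The authors' deposited table gave its lowest p among them to Ndufa4 (log2 fold change 0.35, SE 0.12, p = 0.0037) and its largest fold change to Ndufaf2 (0.70, SE 0.35). Which libraries and covariates entered it is not given in the sources used here, and as a table of the same series it is no independent measurement.

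The median of the 45 genes depended on the scaling and on single libraries, less so when taken relative to the median of all genes, which was 0.23. Median-of-ratios scaling set the median of all genes to -0.004. It gave 44 of 45 genes a positive difference with a median of 0.25, also 0.25 relative to all genes. The lowest medians relative to all genes were 0.161 after quantile normalization, with 40 positive, and 0.163 without the filter on low values, with 38 positive. Without SW033291 replicate 1 the median was 0.06 with 30 positive (0.21 relative to all genes), and without replicate 6 it was 0.16 with 41 positive (0.28 relative to all genes). Without the 3 libraries high in neutrophil transcripts, left out after seeing the data, it was 0.11 with 35 positive (0.22 relative to all genes). Replicate 1 also had the highest adipocyte markers, 9 of which summed to 3566 TPM there, against 719 to 735 TPM in the other SW033291 libraries and 529 to 764 TPM in vehicle libraries. All 9 had a positive log2 difference, and all 8 slow-fibre markers a negative one. The slow-fibre sums ranged from 63.5 to 827 TPM with SW033291 and from 160 to 738 TPM with vehicle. The part of either in the complex I values was not tested. Of the brown adipocyte markers, Ucp1 was at 1.13 TPM in replicate 1 and at 0 in the other 12 libraries, and Cidea was at 10.9, 0 and 0 TPM in SW033291 libraries and at 1.47 to 2.91 TPM in vehicle libraries of batch 2.

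**Figure D3:**
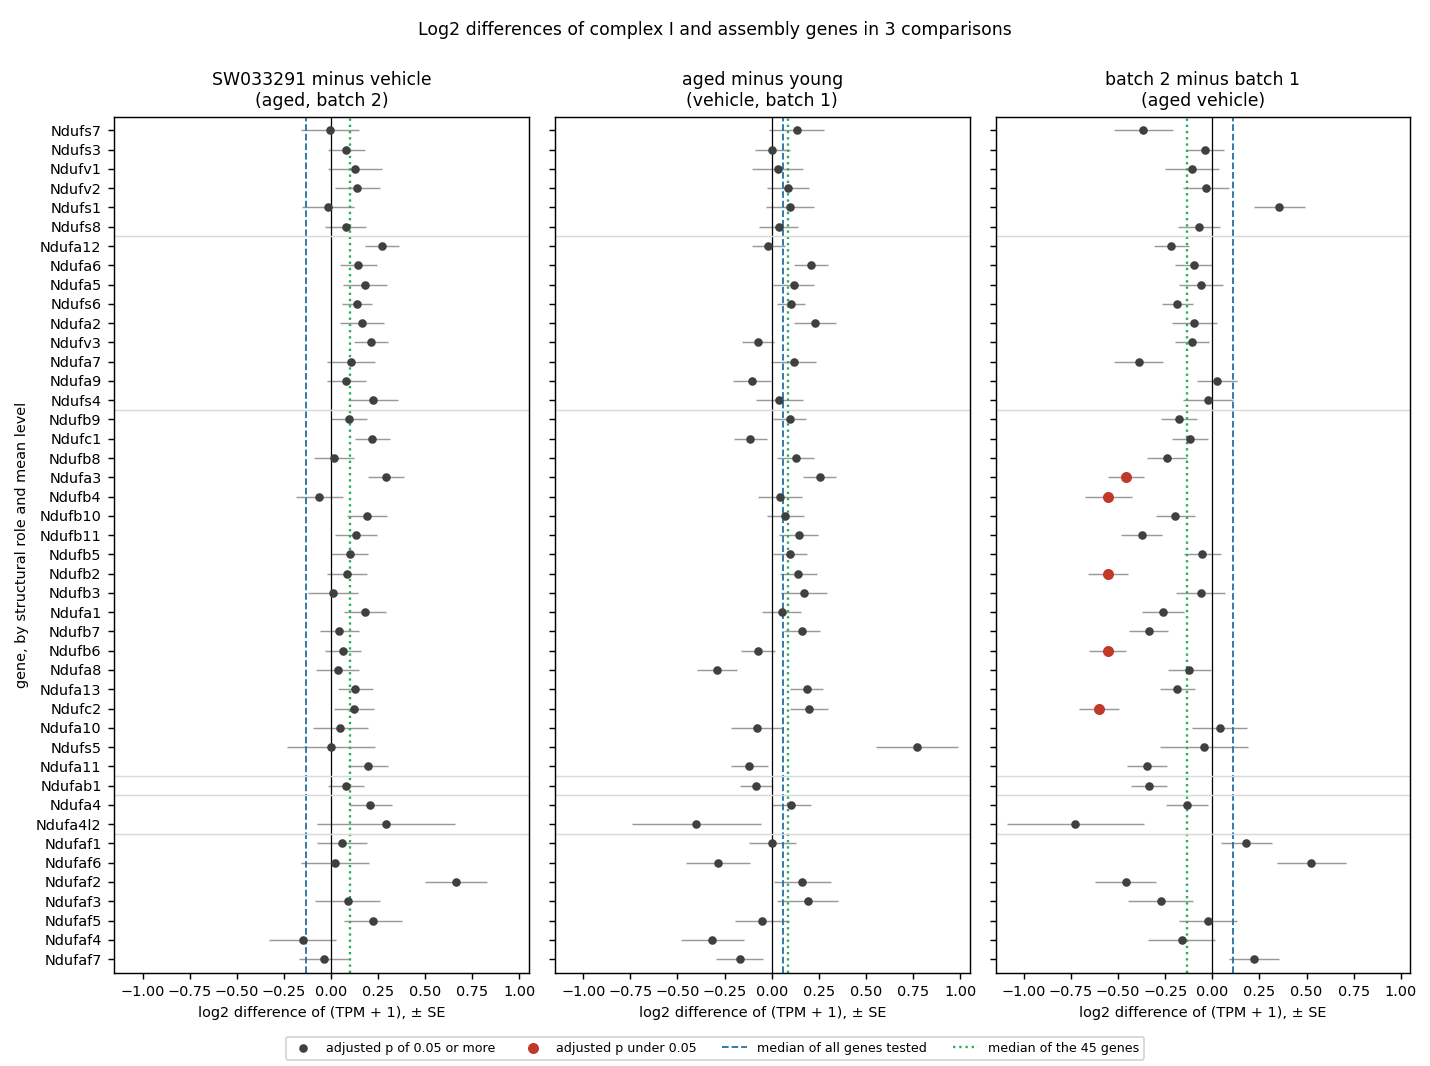
Log2 differences of (TPM + 1) with their SE for 44 of the 45 genes in 3 comparisons, ordered by role and level. The blue dashed line marks the median of all genes tested and the green dotted line the median of the 45, red points have an adjusted p under 0.05, and these are 5 membrane arm genes in the batch comparison.

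Aged vehicle muscle was set against young vehicle muscle, both of batch 1, for differences between ages. Single complex I transcripts mostly differed little between ages, while some sums did not overlap. The 36 subunits summed to 19166 to 20730 TPM in aged and 18290 to 18967 TPM in young libraries. Membrane arm accessory subunits summed to 10815 to 11921 TPM in aged and 10365 to 10775 TPM in young libraries. Complex IV sums also did not overlap, at 16437 to 17079 and 15530 to 16131 TPM. Sums of core subunits, matrix arm accessory subunits, assembly factors, complex II, complex III and ATP synthase overlapped. None of the 45 genes passed limma's adjusted p of 0.05, where 54 of all genes (0.455%) did. At an unadjusted p under 0.05 there were 4 of the 45, against 9.92% of all genes. A positive log2 difference was seen for 31 of 45, against 61.2% of all genes, and the median was 0.09, against 0.06. Groups did not overlap for 6 genes that were higher in aged muscle (Ndufa3, Ndufa13, Ndufb2, Ndufb7, Ndufc2 and Ndufs5; 8.85% of all genes) and for 2 that were lower (Ndufa8 and Ndufab1; 2.7%). These are 13.3% and 4.44% of the 45 genes.

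Ndufs5, an accessory subunit on the outer face of the membrane arm, had the largest difference. It stood at 311, 266 and 445 TPM in aged libraries and 236, 153, 173 and 229 TPM in young libraries. The groups did not overlap, and the log2 difference was 0.77 (SE 0.22, limma adjusted p = 0.16). Part of the Ndufs5 transcript is repeated elsewhere: 31.1% of the 50-base windows of its principal transcript (GENCODE M21) occur letter for letter in BC002163. That gene has a row of its own in the table. BC002163 stood at 374, 409 and 326 TPM in aged libraries and 436, 499, 509 and 432 TPM in young libraries, the opposite order.

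The sum of Ndufs5 and BC002163 was 710 ± 53.2 TPM in aged muscle (SD, n = 3) and 667 ± 12.8 TPM in young muscle (SD, n = 4). With both rows summed before the fit, an alternative chosen after seeing the data, the log2 difference of Ndufs5 was 0.09 (limma adjusted p = 0.80). Ndufs5 took 39.4% to 57.7% of the sum in aged libraries and 23.4% to 35.1% in young libraries. The authors' deposited table lists Ndufs5 at a mean level of 0 and BC002163 at 22.2. Whether the age difference belongs to Ndufs5 or to the division of reads between both rows was not tested, and the value of Ndufs5 is uncertain in every group.

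Ndufa3 stood at 890.3, 902 and 917 TPM in aged libraries and 804, 733, 734 and 759.5 TPM in young libraries. The groups did not overlap (log2 difference 0.25, SE 0.09, limma adjusted p = 0.30). Ndufa8, which faces the space between the membranes, was the lower one: 374, 440.0 and 332 TPM in aged libraries and 477, 458, 452 and 469 TPM in young libraries, with no overlap. Its log2 difference was -0.29 (SE 0.11, limma adjusted p = 0.33). Ndufa2 and Ndufa6, small subunits of the matrix arm, had log2 differences of 0.23 (SE 0.11) and 0.21 (SE 0.09). Ndufc2 had 0.20 and Ndufaf3 0.19.

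The core subunits had small positive differences, from 0.003 for Ndufs3 to 0.13 for Ndufs7. Ndufs1 had 0.10, Ndufv2 0.09, Ndufs8 0.04 and Ndufv1 0.03. Among the assembly factors 4 of 7 were lower in aged muscle: Ndufaf4 had -0.32 (SE 0.17), Ndufaf6 -0.28 (SE 0.17), Ndufaf7 -0.17 (SE 0.12) and Ndufaf5 -0.05. Ndufaf2 had 0.16 and Ndufaf1 0.00. Ndufa4 had 0.10 and Ndufa4l2 -0.40 (SE 0.34). Of the membrane arm genes, Ndufa11 had -0.12 and Ndufc1 -0.11.

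Ndufaf4, which helps to build the part of the matrix arm that binds ubiquinone, was the only one of the 45 genes in the authors' deposited age table, which lists 813 genes (3.39% of the 24015 in the TPM table), all with an adjusted p of at most 0.0999. The authors' deposited table gave it a log2 fold change of -0.52 (SE 0.17, adjusted p = 0.049). In the present fit its values were 14.7, 13.9 and 23.4 TPM in aged libraries and 19.2, 21.3, 22.7 and 21.9 TPM in young libraries. Aged replicate 4 was above all young libraries, so the groups overlapped (limma adjusted p = 0.59). That library also held most of the neutrophil transcripts of its group.

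The sign of the small median with age depended on the scaling: it was -0.03 after quantile normalization and -0.01 without the 20 most abundant genes. Relative to the median of all genes it was 0.03 as first given, -0.03 after quantile normalization and 0.01 without the most abundant genes. Neutrophil markers had a positive log2 difference with age for 9 of 9 genes, but none was called and the groups overlapped for each. Their sums were 0.87 to 1760 TPM in aged and 0.88 to 2.92 TPM in young libraries. The 1760 TPM stood in aged replicate 4, and the lowest aged sum was below every young one. Without aged replicate 4 the median of the 45 genes was 0.04. The part of these cells in the values was not tested.

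**Figure D4:**
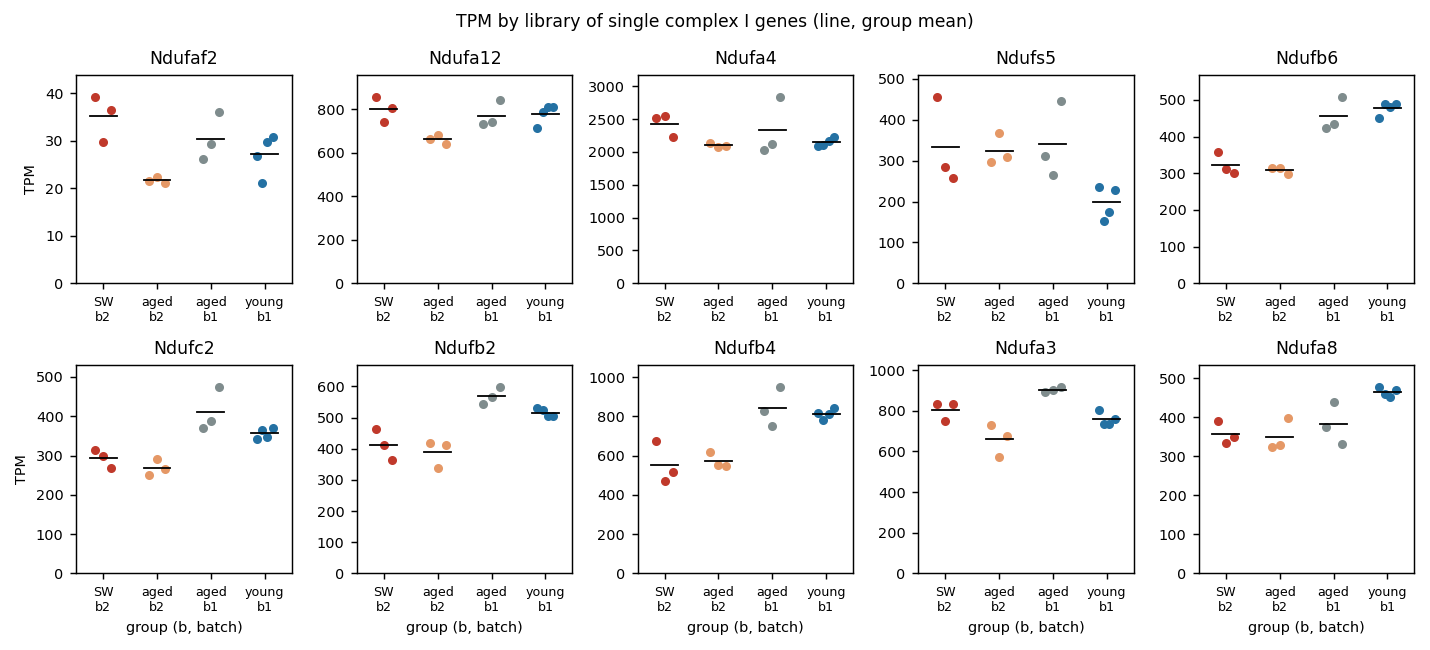
TPM by library of 10 complex I genes in the 4 groups (points are libraries, lines group means, axes start at 0; b, batch). Ndufaf2, Ndufa12 and Ndufa3 of SW033291 libraries lie above those of vehicle libraries of batch 2, and Ndufb6, Ndufc2, Ndufb2, Ndufb4 and Ndufa3 of aged vehicle libraries lie lower in batch 2 than in batch 1.

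The vehicle groups of aged mice share their labelled age and treatment, and batch 2 was set against batch 1 to show how far batches differ in these genes. Here 5 complex I genes fell, all of them accessory subunits of the membrane arm, and no gene of the 45 rose, where 204 of all genes (1.72%) did. The 5 were Ndufa3, Ndufb2, Ndufb4, Ndufb6 and Ndufc2, against 63 of all genes called lower (0.53%). At an unadjusted p under 0.05, 16 of 45 were lower, against 4.41% of all genes, and 2 were higher, against 13.7%. Groups did not overlap, with batch 2 lower, for 14 of 45, against 4.64%, and with batch 2 higher for 1 of 45 (Ndufaf7), against 11.9%. A negative log2 difference was seen for 39 of 45, against 35.8% of all genes. This count depended on the fit. It was 29 without batch 1 replicate 4, 30 without the 3 libraries high in neutrophil transcripts and 30 with a replicate block. After quantile normalization it was 32, and under median-of-ratios scaling 41. Relative to the median of all genes, the medians of the 45 in these 5 fits were -0.28, -0.25, -0.32, -0.115 and -0.27. The median was -0.14, where that of all genes was 0.11. Batch 2 vehicle libraries are also the controls of the SW033291 comparison, and batch 1 aged libraries are part of the age comparison, so the 3 comparisons are not independent of each other.

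Ndufb6 stood at 314, 314 and 298 TPM in batch 2 and 424, 435 and 508 TPM in batch 1 (log2 difference -0.56, SE 0.10, limma adjusted p = 0.017). Ndufc2 stood at 251, 291 and 266 TPM in batch 2 and 371, 389 and 474 TPM in batch 1 (log2 difference -0.60, SE 0.11, limma adjusted p = 0.017). Ndufb2 stood at 418, 338 and 413 TPM in batch 2 and 544, 567 and 598 TPM in batch 1 (log2 difference -0.55, SE 0.11, limma adjusted p = 0.024). In each of these genes every batch 2 library was below every batch 1 library, and a fall to about 0.66 to 0.68 of the batch 1 level was estimated.

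Ndufb4 stood at 616, 549.7 and 549 TPM in batch 2 and 826, 749 and 949 TPM in batch 1 (log2 difference -0.55, SE 0.13, limma adjusted p = 0.038). Its transcript shares 37.0% of its 50-base windows with other genes of GENCODE M21, chiefly Ndufb4c. The authors' deposited table lists Ndufb4 at a mean level of 68.0, and its level is uncertain too. Ndufa3 stood at 729.5, 572 and 677 TPM in batch 2 and 890.3, 902 and 917 TPM in batch 1 (log2 difference -0.46, SE 0.10, limma adjusted p = 0.029). Neither gene's batches overlapped.

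These calls depended on single libraries. None of the 5 passed without aged vehicle batch 2 replicate 2 or without replicate 3, and only Ndufc2 passed without batch 1 replicate 2. Over all genes 21, 21 and 18 passed in these 3 fits, against 267 with every library. Without batch 1 replicate 4, 9 of the 45 genes were called lower, against 1.95% of all genes, and 2 higher, against 11.9%. All 5 kept a negative difference in each of these fits. No call passed without the trend on the variance, where the limma adjusted p of the 5 ran from 0.05 to 0.0864, or in a fit of these groups alone.

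The core subunits differed in sign between batches. Ndufs7 had a log2 difference of -0.37 (SE 0.15) and Ndufs1 of 0.36 (SE 0.14), at limma adjusted p of 0.23 and 0.18. Ndufv1 had -0.11, Ndufs8 -0.07, Ndufs3 -0.04 and Ndufv2 -0.03. Among the assembly factors Ndufaf6 had 0.53 (SE 0.18), Ndufaf7 0.22 and Ndufaf1 0.18, while Ndufaf2 had -0.46 (SE 0.16), Ndufaf3 -0.28, Ndufaf4 -0.16 and Ndufaf5 -0.02. Ndufa4 had -0.14 and Ndufa4l2 had -0.73 (SE 0.36). Ndufa7, a matrix arm subunit, had -0.39 (SE 0.13), and Ndufa9 and Ndufa10 were near zero, at 0.03 and 0.04. Slow-fibre markers were higher in batch 2 for 8 of 8 genes, with sums of 160 to 738 TPM in batch 2 and 54.4 to 814 TPM in batch 1. Of 10 fast-fibre markers, Myh4, a fast myosin, was called higher in batch 2 (log2 difference 1.21) and Pvalb, a calcium buffer of fast fibres, was called lower (-0.58). Myh2, the myosin of type IIa fibres, stood at 193 to 660 TPM in batch 2 and 89.5 to 423 TPM in batch 1. The 9 adipocyte markers all had a negative difference, with sums of 529 to 764 TPM in batch 2 and 666 to 1258 TPM in batch 1. The part of these transcripts in the complex I values was not tested.

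The other respiratory complexes are given beside complex I. With SW033291, the medians relative to that of all genes were 0.16 for 4 genes of complex II, 0.30 for 9 genes of complex III, 0.30 for 13 genes of complex IV and 0.26 for 16 genes of ATP synthase, next to 0.23 for the complex I genes. Positive differences were seen for 3 of 4, 8 of 9, 11 of 13 and 15 of 16 of them. None of these genes was called with SW033291 or with age. The largest with SW033291 was Atpif1, the inhibitor of ATP synthase, with a log2 difference of 0.70 (limma adjusted p = 0.34). Between batches the medians relative to all genes were -0.12, -0.23, -0.50 and -0.11 in the same order, next to -0.24 for complex I. Called lower in batch 2 were Uqcrq (-0.62, limma adjusted p = 0.009) and Uqcr11 (-0.49, 0.032) of complex III, Cox6b1 (-0.62, 0.0068) and Cox8b (-0.50, 0.018) of complex IV, and Atp5g2 (-0.42, 0.031), a gene of the membrane ring of ATP synthase.

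Other genes that serve complex I are set beside the 28.9% of all genes with a positive difference with SW033291. Of 13 further assembly genes, among them Acad9, Ecsit and Tmem126b, which work with Ndufaf1, 8 had a positive difference with SW033291, with a median of 0.00 (0.14 relative to all genes) and a range of -0.21 (Tmem126b) to 0.07 (Oxa1l). Of 15 regulators of mitochondrial gene transcription, 4 had a positive difference with SW033291, with a median of -0.09 (0.04 relative to all genes). Yy1, whose motif is shown above and which was singled out after its value was seen, stood at 12.0 ± 1.4 TPM with SW033291 and 18.9 ± 1.0 TPM with vehicle (SD, n = 3 each; log2 difference -0.62, limma adjusted p = 0.34). The 5 genes with the YY1 core had log2 differences of 0.22 (Ndufc1), 0.22 (Ndufs4), 0.14 (Ndufs6), 0.08 (Ndufa9) and -0.01 (Ndufs7). Of 12 supercomplex and turnover genes, 3 had a positive difference with SW033291, with a median of -0.06 (0.07 relative to all genes). No gene of these 3 lists was called in any comparison.

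Complex I genes are short: their principal transcripts had a median of 983 bases (419 to 4371), against 2940 bases for the 10998 tested genes with a length in GENCODE M21. Length classes were chosen after seeing the data. Among genes that are no members and average 100 TPM or more, the 208 with a principal transcript of up to 1000 bases had median log2 differences of 0.05 with SW033291, 0.14 with age and -0.22 between batches. The 447 over 2000 bases had -0.13, 0.02 and 0.20 in the same order. The 45 complex I genes had 0.10, 0.09 and -0.14. Within the 45, the Spearman correlation of length with the log2 difference was -0.30 for SW033291, -0.41 for age and 0.45 for batch, given as a description over genes that share libraries.

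The shorter 23 of the 45 genes had a median of 0.13 with SW033291 and the longer 22 one of 0.08. Between batches these medians were -0.26 and -0.05. With other definitions of length the correlations for SW033291 were -0.18 (longest transcript of any kind) and -0.38 (median coding transcript), and the short class of other genes had medians of 0.05 and -0.00 with SW033291. Transcript length thus moved with these values in every comparison. Its part in the results was not tested.

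**Figure D5:**
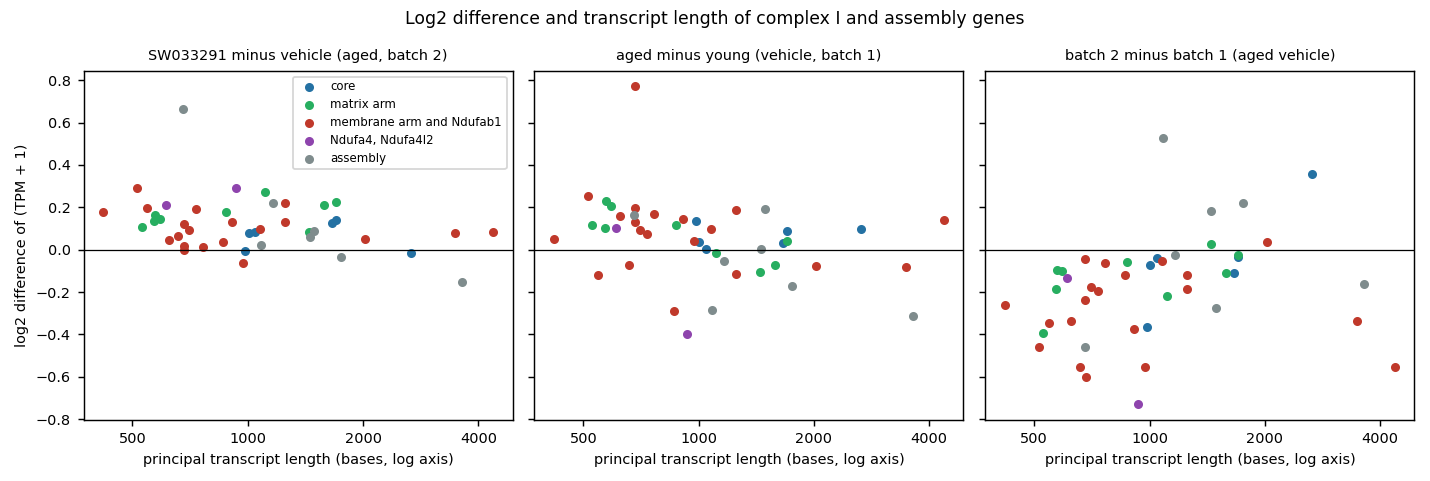
Log2 difference of (TPM + 1) of 44 of the 45 genes against the length of their principal transcript (bases, log axis) in 3 comparisons, coloured by role. Shorter transcripts tend to lie higher with SW033291 and with age and lower in batch 2, with Spearman correlations over all 45 genes of -0.30, -0.41 and 0.45.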

How the data were processed

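RNA of whole quadriceps was measured in 13 libraries. The tools named by the submitters' processing notes are DESeq, DESeq2, RSEM and STAR, with the mm9 build. Their versions and order are not stated there. The authors deposited TPM for 24015 genes, and tables of their own comparisons. Per the file headers these hold a log2 fold change, a p-value, a test statistic (a score) and a mean level (a signal over libraries) per gene.

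The deposited gene names did not stand on their own rows: 27 spreadsheet dates were undone, all names were sorted in byte order and put back on the rows as they stand. The log2 differences of 44 complex I genes with SW033291 then had a Pearson correlation of 0.915 with the authors' deposited table. It was 0.005 as deposited and 0.181 or -0.146 when moved by 1 row. The Spearman correlation of levels was lower for these 44 genes, at 0.619, than over 23988 genes, at 0.960. For the 44 it was 0.021 as deposited and 0.177 or 0.287 when moved by 1 row. Every value rests on this restored order.

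Values were analysed as log2(TPM + 1), which understates changes of low genes, with limma 3.58.1 (R 4.3.3). The 11876 genes tested reached 1 TPM in 3 or more libraries. One coefficient per group was fitted over all 13 libraries, with moderated variances, a trend on expression and Benjamini-Hochberg adjustment over all genes, threshold 0.05. The script was tested on simulated data. Groups and batches came from the labels. Young libraries are all of batch 1 and treated ones all of batch 2. Alternatives covered the pseudocount (0.1 and 5), the filter, 3 scalings, the variance trend, the samples fitted, left-out libraries and a replicate block. Lists were described by counts and medians, with no test. The values of 1 of the 45 genes are not reported here, though it counts in totals. Named with values were genes past the threshold, the 6 highest and 6 lowest log2 differences per comparison by role, core subunits and assembly factors; TPM per library were given for called genes and the 3 lowest p per comparison, and for Ndufa4, Ndufa4l2 and Ndufaf4, chosen after their values were seen. Members, lists and tests were chosen with earlier results of these data known. Motifs, shared 50-base windows and lengths came from RefSeq (GRCm38.p6) and GENCODE M21 sequences, read with Python 3.11.15.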

Additional observations from a re-analysis of the deposited data

Results flagged for a closer look

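Of 52 quantities checked in the young group (45 genes and sums), 1 had a library far from the others. The 9 matrix arm accessory subunits summed to 4640 TPM in young vehicle replicate 5, against 4408 to 4444 TPM in the other 3 young libraries. The gap between it and the nearest of the others was large for the range of the 4. Chance flags about 1 in 20 such sets. Only the young group has enough libraries for this check.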

How the results depend on the processing

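With SW033291, 0 complex I genes were called in all alternatives run. All-gene counts there were 4 at a pseudocount of 0.1, 1 without the variance trend, 0 to 1 over left-out replicates and 4 without the 3 libraries high in neutrophil transcripts, an alternative chosen after seeing the data. The complex I median was 0.25 under median-of-ratios scaling and 0.056 to 0.161 over left-out replicates. With age, the median was 0.016 under median-of-ratios scaling, -0.033 after quantile normalization, -0.01 without the most abundant genes and 0.036 to 0.099 over left-out replicates. Aged vehicle of both batches against young gave 1 call (Ndufs5), a median of -0.022 and 297 genes. Aged vehicle of batch 2 against young, in which batch and age cannot be told apart, gave 10 calls (2 higher, 8 lower), a median of -0.084 and 1679 genes, and Ndufa3 reversed to -0.21. The 54 age genes became 27 without a filter, 31 without the trend, 24 with only the groups compared and 19 to 92 over left-out replicates. Between batches, the 5 complex I calls became 2 after quantile normalization, 0 without the trend, 0 with only the groups compared, 0 to 11 over left-out replicates and 8 without the 3 libraries. The median was -0.28 under median-of-ratios scaling and -0.195 to -0.135 over left-out replicates. The 267 genes became 144 under median-of-ratios scaling (46 higher, 98 lower, against 204 and 63), 98 after quantile normalization (53 higher), 112 without the trend, 1 with only the groups compared, 18 to 1643 over left-out replicates and 1037 without the 3 libraries. The cause of these changes was not tested.

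With a replicate block the age count was 4 genes and 0 complex I genes, and the batch counts were 2447 genes and 12 complex I genes (2 higher, 10 lower). The groups share only 2 numbers each. Deviations of same-numbered libraries had correlations of 0.171 and 0.04 for age and -0.147 and -0.06 for batch. So few shared numbers cannot show whether same-numbered samples belong together, and the labels give no pairing. SW033291 and vehicle libraries share no number, and no paired analysis was possible because of that. Fits that leave out a library assume that the rest vary alike. TPM hold no depth, so counting error is unknown.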
